A study of Mus musculus with 8 samples.

Results

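The genes described here mark macrophages and other myeloid cells of the skin, together with the C-type lectins, a family of proteins that carry a fold first known for binding sugars. They were chosen by name from the annotation of an Illumina mouse bead array. Every probe whose gene symbol was Clec followed by a digit was taken, and so was every probe of a fixed set of 26 names of myeloid genes. This gave 85 of 25697 probes and 51 of 16593 annotated genes, of which 29 were Clec genes and 22 came from the fixed names. Emr1 and Lilrb4 were found under their present symbols, Adgre1 and Lilrb4a, and Lyz is an older name of Lyz1. The other 3 names, Cd68, Csf1r and Mpeg1, matched no probe in the annotation used and were not analysed here.

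Whole back skin was taken from 10-week-old mice of the C57BL6 background, and RNA of each mouse went on an array of its own. Both groups carried Med1 with loxP sites on each allele (MED1 fl/fl). The 4 KO mice also carried Cre recombinase driven by the K14 promoter, which is active in keratinocytes, and the 4 control mice were labelled WT. By the methods, the control mice were littermates without Cre. Myeloid cells are not the cells this promoter is used for, and the RNA is a mixture of all cells of the skin. Signals are relative, so fewer cells of a type, less RNA per cell and a smaller share of all RNA cannot be told apart. For mice of this line and age, the paper describes an abnormal shift of KO skin to hair growth (anagen), with control skin at rest (telogen). On these arrays all 7 hair shaft and inner root sheath keratins counted below were higher in KO skin, so genes of growing hair differed together with genotype. The part of genotype or hair cycle in the results was not tested, and these mice cannot tell them apart. The comparison asks how the myeloid part of the skin transcriptome differed when Med1, a subunit of the Mediator complex, was deleted from the epithelium.

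Dermal macrophages lie in the connective tissue around vessels and follicles, take up debris through scavenger and lectin receptors, and bind antibody-coated particles through Fc receptors. Langerhans cells are a myeloid population inside the epidermis, and dermal dendritic cells carry antigen to lymph nodes. Many Fc receptors and several C-type lectins have no signalling motif of their own. They pass their signal through the adaptor proteins Fcer1g and Tyrobp, whose tyrosine motifs (ITAM) recruit the kinase Syk, whereas Fcgr2b and Lilrb4a carry inhibitory motifs.

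The arrays detected between 14593 and 15149 probes each. Within a genotype, arrays had a correlation of at least 0.991 across probes, which are not independent replicates. At its brightest probe Med1 was at 57.9% of control in KO skin (adjusted p = 0.000649), with log2 signals of 9.05, 8.99, 8.92 and 9.10 for control mice against 8.26, 7.80, 8.39 and 8.45 for KO mice. A dimmer Med1 probe was lower with overlapping groups (-0.69, adjusted p = 0.00861), and the dimmest tested probe did not pass (-0.23, adjusted p = 0.252). The basal keratinocyte markers Krt5, Krt14 and Krt15 were detected on all 8 arrays. Krt15 (-1.68, adjusted p = 1.96e-07) and Krt5 (-0.30, adjusted p = 0.0113) were lower in KO skin and Krt14 did not pass (0.11, adjusted p = 0.177), and without control mice 1 and 3 only 1 of them was lower. Control mice 1 and 3 stood apart from the other two in keratins of the growing hair. Krt27, an inner root sheath keratin, lay at 9.58 and 9.36 in them and at 5.56 and 5.69 in control mice 2 and 4, and counts and calls that differ without this pair are given beside them below.

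The transcription factor PU.1, encoded by Spi1, is a main regulator of macrophage genes and binds DNA around the letters GAGGAA. Promoters of the genes under study were therefore read for these letters on both strands, over the 250 bases before the RefSeq start site in the mouse build GRCm38.p6. Of 35 genes with a tested probe, 25 had a promoter in the sequence table, and 15 of these (60%) held at least 1 match, against 25.9% of all 27025 genes in the table. The share was 57.1% (12 of 21) in those of them that were lower in KO skin. A match is a run of letters and not a measured site. Shown here are Mrc1, the mannose receptor, which held 3 matches, the neighbouring lectin genes Clec4a1, Clec4b1 and Clec4d, and Cd163, which held none. Capitals mark the matches, written TTCCTC where they lie on the other strand. Mrc1 is at chr2:14229164-14229413, Clec4a1 at chr6:122921598-122921847, Clec4b1 at chr6:123049712-123049961, Clec4d at chr6:123261857-123262106 and Cd163 at chr6:124304401-124304650, all on the plus strand.
Mrc1: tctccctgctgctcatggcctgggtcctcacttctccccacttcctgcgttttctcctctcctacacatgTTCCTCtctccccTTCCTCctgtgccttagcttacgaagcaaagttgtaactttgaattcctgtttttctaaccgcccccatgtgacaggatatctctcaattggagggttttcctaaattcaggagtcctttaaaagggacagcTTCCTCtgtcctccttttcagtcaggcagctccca
Clec4a1: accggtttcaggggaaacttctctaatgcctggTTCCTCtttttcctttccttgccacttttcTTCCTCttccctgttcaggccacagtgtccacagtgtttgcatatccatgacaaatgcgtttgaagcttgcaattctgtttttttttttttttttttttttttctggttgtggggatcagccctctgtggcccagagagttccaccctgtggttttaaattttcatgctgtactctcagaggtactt
Clec4b1: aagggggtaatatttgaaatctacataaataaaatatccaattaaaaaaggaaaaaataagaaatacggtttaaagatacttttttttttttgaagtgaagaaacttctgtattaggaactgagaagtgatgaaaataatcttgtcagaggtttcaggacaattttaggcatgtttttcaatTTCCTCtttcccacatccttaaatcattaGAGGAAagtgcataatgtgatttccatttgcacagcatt
Clec4d: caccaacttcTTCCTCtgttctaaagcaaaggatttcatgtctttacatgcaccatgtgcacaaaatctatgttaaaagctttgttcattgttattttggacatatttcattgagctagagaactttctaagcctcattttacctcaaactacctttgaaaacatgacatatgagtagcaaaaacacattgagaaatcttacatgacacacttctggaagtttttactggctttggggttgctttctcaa
Cd163: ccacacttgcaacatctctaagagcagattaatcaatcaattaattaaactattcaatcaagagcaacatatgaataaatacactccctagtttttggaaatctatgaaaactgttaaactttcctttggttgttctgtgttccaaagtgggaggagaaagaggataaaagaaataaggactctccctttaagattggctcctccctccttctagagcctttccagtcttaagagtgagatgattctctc

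Most of the measured members were lower in KO skin. A probe was tested if its signal was above that of negative control beads (detection p below 0.05) on 4 or more of the 8 arrays, and 52 member probes of 35 genes were. The remaining 16 genes had no tested probe. Of the 52 probes 40 fell, 1 rose and 11 did not pass an adjusted p of 0.05 in limma. Across the array 32.0% of tested probes were lower and 30.7% were higher. By gene, with the brightest probe standing for it, 29 of 35 fell, 1 rose and 5 did not pass, where 34.4% of all tested genes were lower and 29.4% were higher. The median change over the 35 genes was -0.81 on the log2 scale, KO minus control, and over all 10350 tested genes it was -0.04. Of the 35 genes, 29 were called lower with all 4 KO values below the 4 control values, against 31.4% of all tested genes. Across the array 3245 of the 3560 genes called lower showed this pattern, so it adds little to the call. A decrease of at least 2-fold was found for 10 of the 35, against 9.89% of all tested genes. These include Clec3b, Clec11a and Clec4g, described below as genes of connective tissue, stromal cells and sinusoidal endothelium. Because a probe can pass the filter through 1 group alone, the 32 genes detected on all 8 arrays were also counted, and 28 of them were lower. Leaving out control mice 1 and 3, 28 member genes were lower and 2 were higher.

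**Figure D1:**
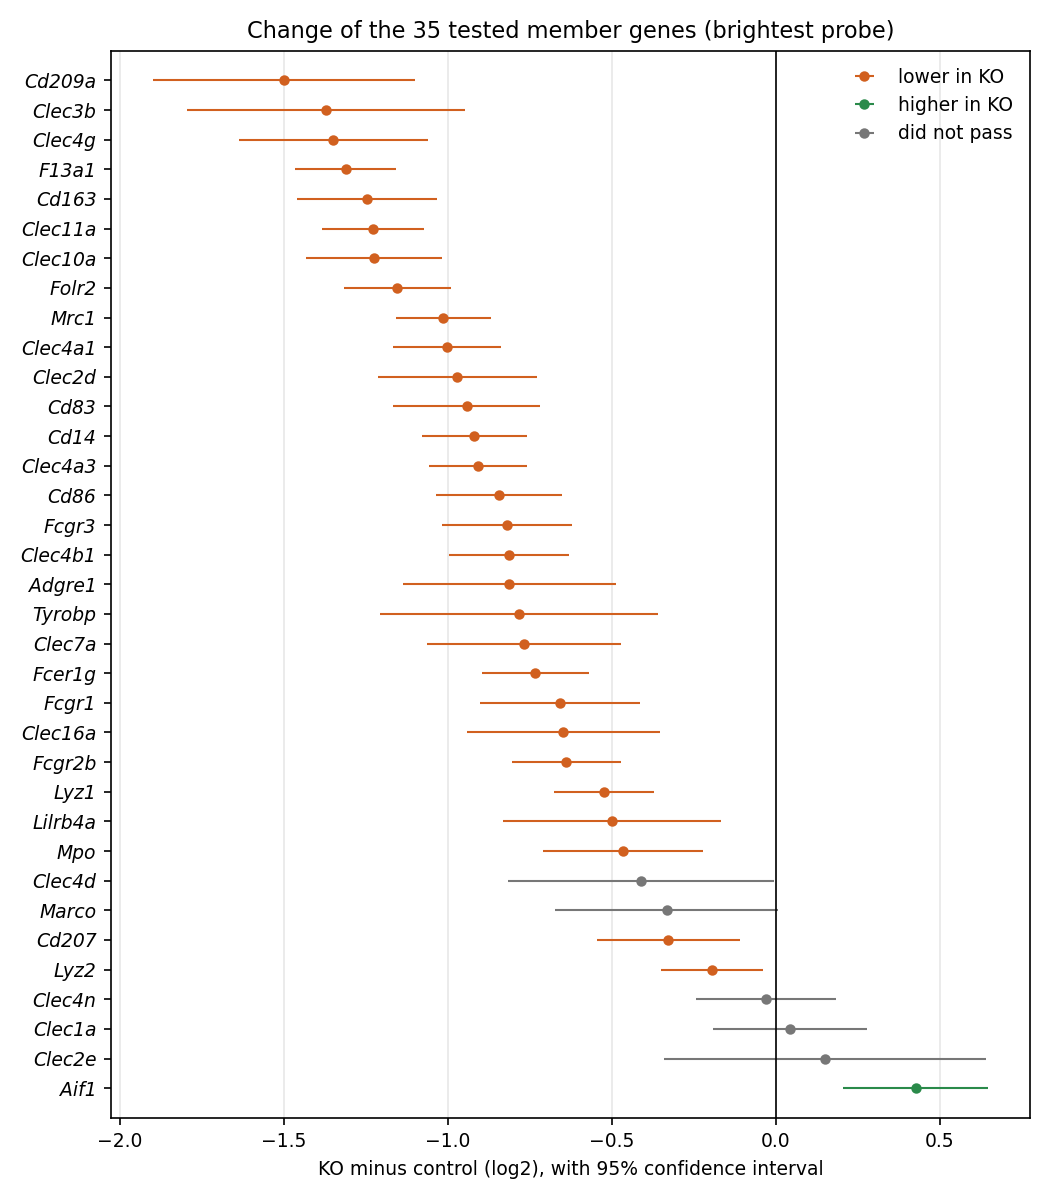
Change of each of the 35 tested member genes, as KO minus control on the log2 scale at the brightest probe (points) with its 95% confidence interval (lines). Genes are ordered by their change from Cd209a (-1.499) to Aif1 (0.43), and the 29 genes that were lower lie left of 0.

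The scavenger and endocytic receptors, which macrophages use to clear ligands from tissue, had 4 genes lower of 5 tested. Cd163, the receptor for haemoglobin bound to haptoglobin, had log2 signals of 11.24, 11.32, 11.22 and 11.20 for control mice against 9.81, 10.16, 9.88 and 10.14 for KO mice. Mrc1, which binds mannose-rich glycoproteins, gave 12.45, 12.51, 12.52 and 12.61 for control mice against 11.47, 11.53, 11.51 and 11.52 for KO mice. Folr2, the folate receptor of tissue macrophages, lay at 10.62, 10.49, 10.63 and 10.50 for control mice against 9.29, 9.42, 9.48 and 9.45 for KO mice. In each of the 3 genes every KO mouse lay below every control mouse, and the gap between groups was wider than the range within either. Cd163 fell by 1.25 ± 0.10 (SE, n = 4 per group, adjusted p = 2.94e-06), Folr2 fell by 1.15 ± 0.07 (adjusted p = 8.05e-07) and Mrc1 fell by 1.01 ± 0.06 (adjusted p = 8.25e-07). Cd14, a coreceptor for bacterial lipopolysaccharide, fell by 0.92 ± 0.07 (adjusted p = 3.11e-06). Marco, a scavenger receptor with a collagen-like stalk, was detected on 3 control arrays and 1 KO array and did not pass (-0.33, 95% interval -0.67 to 0.01, adjusted p = 0.0808). It passed without control mouse 1 (-0.48, adjusted p = 0.00337), without control mice 1 and 3 (-0.47, adjusted p = 0.0139) and with the authors' normalized values (-0.57, adjusted p = 0.0361). The only probe of Msr1, the class A scavenger receptor, was detected on no array.

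**Figure D2:**
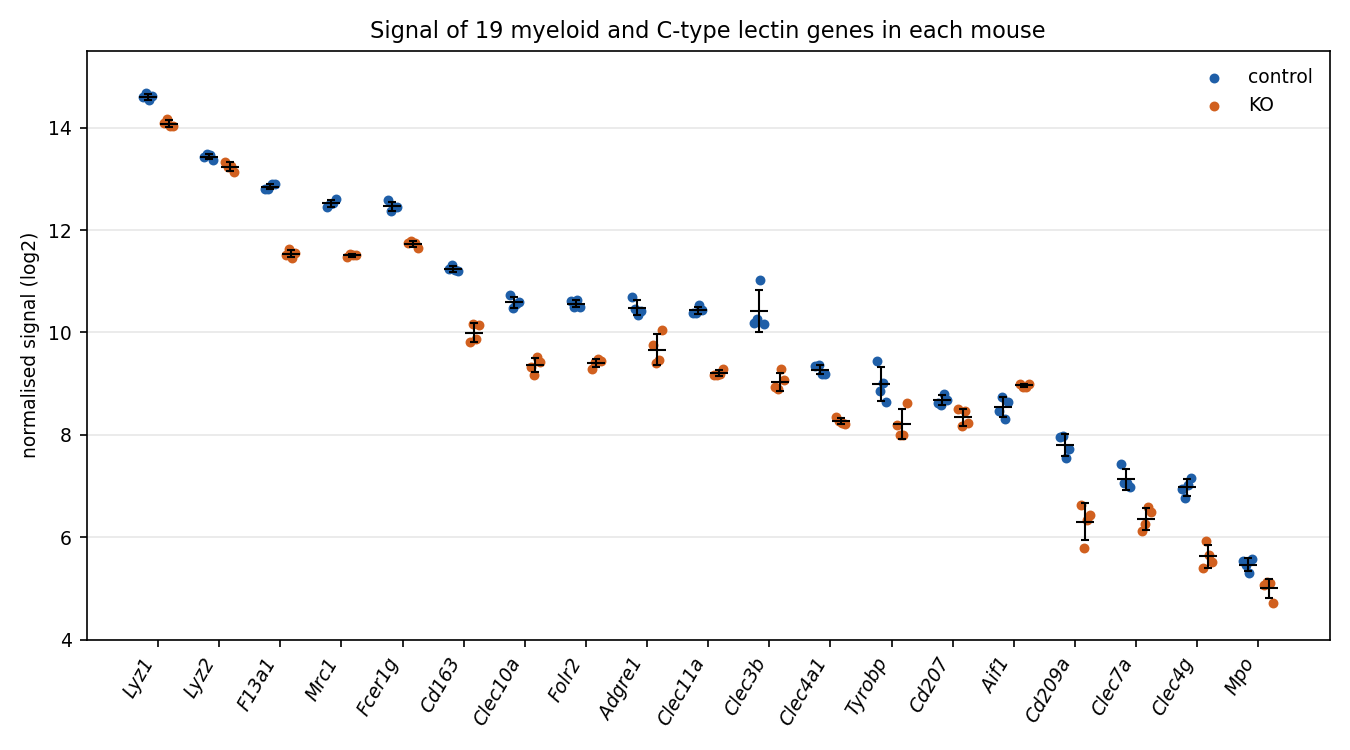
Normalised log2 signal (vertical axis) of 19 member genes in each of 4 control and 4 KO mice. Points are mice, and bars give the mean and SD of each group. In 18 of the genes the KO points lie below the control points, and in Aif1 they lie above. The largest decreases and Aif1 were chosen among called genes whose groups did not overlap, so their separation follows from that choice. Levels of different genes come from different probes and are not comparable.

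Other macrophage markers did not all move alike. F13a1, the catalytic subunit of coagulation factor XIII and a marker of dermal macrophages, had signals of 12.81, 12.80, 12.90 and 12.89 for control mice against 11.52, 11.62, 11.46 and 11.55 for KO mice, with no overlap. It fell by 1.31 ± 0.07 (adjusted p = 2.15e-07), to 40.3% of control, and its change stayed between -1.36 and -1.28 in all 20 alternatives. Adgre1 encodes F4/80, the classical surface marker of mouse macrophages. Its signals were 10.69, 10.46, 10.34 and 10.43 for control mice against 9.76, 9.40, 9.47 and 10.04 for KO mice. KO mouse 4 lay nearest to the control mice, and the groups did not overlap. Adgre1 fell by 0.81 ± 0.14 (adjusted p = 0.000828) and by 0.69 ± 0.16 at a second probe, while its dimmest probe did not pass (0.23, adjusted p = 0.0862).

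Aif1, an actin-binding protein of macrophages also called Iba1, was the only member gene counted as higher, and its probes opposed each other. At the brightest probe the signals were 8.47, 8.74, 8.30 and 8.64 for control mice against 8.99, 8.94, 8.93 and 9.002 for KO mice, a rise of 0.43 ± 0.10 (adjusted p = 0.00380). At the next probe the signals were 8.68, 8.66, 8.68 and 8.73 for control mice against 7.998, 8.37, 8.39 and 8.22 for KO mice, a change of -0.44 ± 0.09 (adjusted p = 0.00236). The annotation gives both probes the same transcript accession, and neither pair of groups overlapped. The mean over the probes of Aif1 changed by -0.0083, so no direction can be given for this gene. Without control mice 1 and 3 the rise at the brightest probe was 0.27. Among 2774 genes with several tested probes, 92 had calls in both directions.

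**Figure D3:**
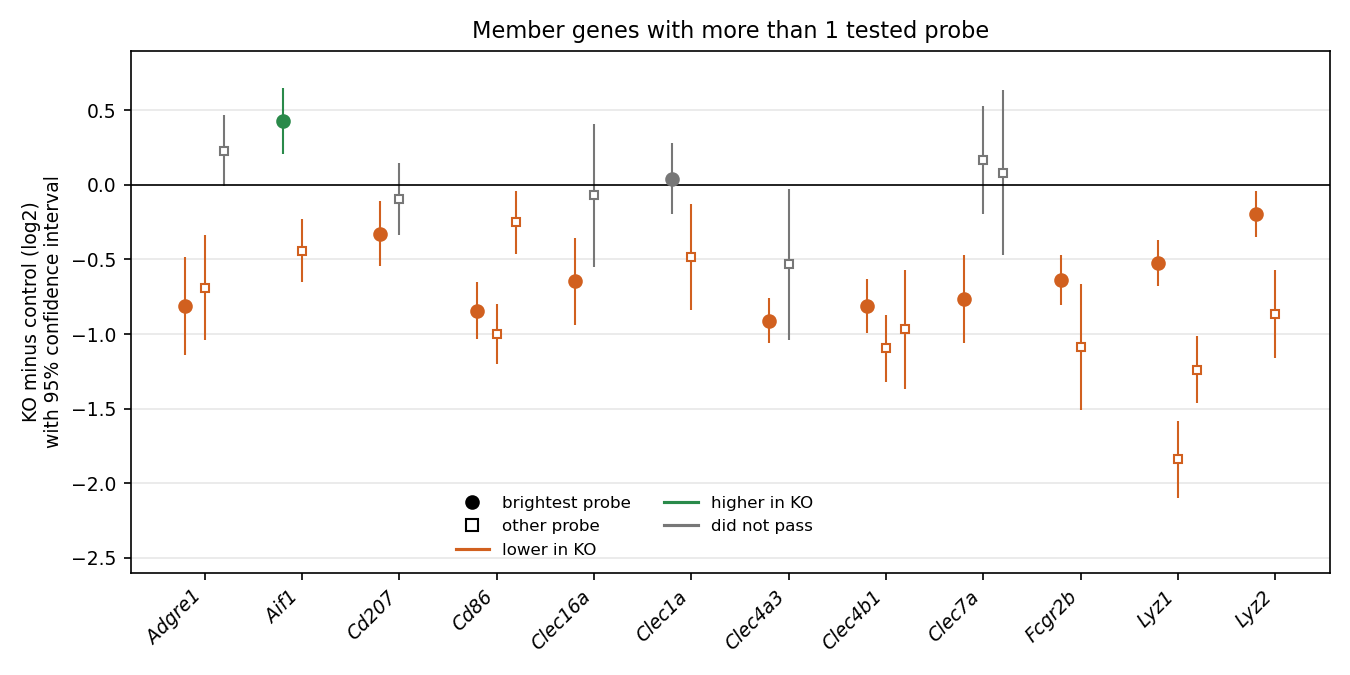
Change of every tested probe of the 12 member genes with more than 1 tested probe (KO minus control, log2, with 95% confidence interval). Filled circles are the brightest probe of a gene and open squares are its other probes. All tested probes lie below 0 in 8 genes, while Adgre1, Aif1, Clec1a and Clec7a have probes on both sides.

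All 6 Fc receptor and adaptor genes fell, with log2 changes between -0.82 and -0.50. Fcer1g, the gamma chain that carries the ITAM of activating Fc receptors, gave 12.59, 12.36, 12.45 and 12.46 for control mice against 11.74, 11.78, 11.75 and 11.65 for KO mice. Tyrobp, the adaptor also called DAP12, gave 9.44, 8.86, 9.01 and 8.64 for control mice against 8.19, 8.001, 8.004 and 8.62 for KO mice. The values of Fcer1g were tightly grouped, whereas in Tyrobp KO mouse 4 (8.62) reached almost to control mouse 4 (8.64). Fcer1g fell by 0.73 ± 0.07 (adjusted p = 1.68e-05) and Tyrobp fell by 0.78 ± 0.19 (adjusted p = 0.00485). Of the receptors themselves, the activating Fcgr3 fell by 0.82 ± 0.09 (adjusted p = 2.93e-05) and Fcgr1, which binds IgG with high affinity, fell by 0.66 ± 0.11 (adjusted p = 0.000499). The inhibitory receptor Fcgr2b fell by 0.64 ± 0.07 (adjusted p = 4.84e-05) and by 1.09 ± 0.19 at a probe assigned to another transcript. Lilrb4a, also inhibitory, fell by 0.50 ± 0.15 (adjusted p = 0.0143). Activating and inhibitory genes were thus both lower, and whether their changes differed from each other was not tested.

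All 4 genes of dendritic and antigen presenting cells fell, with a wide range. Cd209a, a relative of human DC-SIGN found on dermal dendritic cells and some macrophages in mice, had signals of 7.97, 7.98, 7.54 and 7.72 for control mice against 6.64, 5.80, 6.34 and 6.44 for KO mice. Its change was -1.499 ± 0.18 on the log2 scale (adjusted p = 5.68e-05). KO mouse 2 was the lowest, and without background correction the change was -0.78. Cd83 and Cd86, surface proteins of activated antigen presenting cells that act in T cell stimulation, fell by 0.94 ± 0.10 (adjusted p = 2.55e-05) and 0.84 ± 0.09 (adjusted p = 1.93e-05). Cd86 was lower at both of its other probes (-0.9998 and -0.25), with overlapping groups at the dimmer one.

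Cd207 encodes langerin, the C-type lectin of Langerhans cells, and these cells lie in the epithelium from which Med1 was deleted. Its signals were 8.62, 8.59, 8.80 and 8.69 for control mice against 8.51, 8.18, 8.47 and 8.23 for KO mice, and the lowest control value was just above the highest KO value. Cd207 fell by 0.33 ± 0.10 (95% interval -0.55 to -0.11, adjusted p = 0.0142), to 79.6% of control. The call was lost without control mice 1 and 3 (-0.29, adjusted p = 0.0845), and a second probe did not pass (-0.10, interval -0.34 to 0.15, adjusted p = 0.466). Its interval at the brightest probe did not overlap those of Cd209a (-1.90 to -1.10), Cd86 (-1.04 to -0.65) or Cd83 (-1.17 to -0.72). At the dimmest probe of Cd86 the interval (-0.46 to -0.04) did overlap that of Cd207, and the differences between genes were not tested.

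Lysozyme digests bacterial cell walls, and the mouse has 2 neighbouring genes for it, Lyz1 and Lyz2, of which Lyz2 is the macrophage form. The copies are alike in sequence, so probes may capture both and the values of either gene are uncertain. Lyz1 had signals of 14.59, 14.67, 14.54 and 14.61 for control mice against 14.09, 14.17, 14.02 and 14.04 for KO mice. Lyz2 had signals of 13.42, 13.48, 13.47 and 13.37 for control mice against 13.33, 13.24, 13.26 and 13.13 for KO mice. In both genes the KO mice lay below the control mice, by a small step near the top of the scale. Lyz1 fell by 0.52 ± 0.07 at this probe (adjusted p = 0.0001) and had changes of -1.84 ± 0.11 and -1.24 ± 0.10 at dimmer ones (adjusted p = 7.08e-07 and 4.01e-06). Lyz2 fell by 0.19 ± 0.07 (adjusted p = 0.0338) and by 0.87 ± 0.13 at another probe (adjusted p = 0.000279). Its call at the brightest probe was lost without any 1 of control mice 1, 2 and 3 or KO mice 2, 3 and 4 (adjusted p between 0.0546 and 0.0843), without control mice 1 and 3 (adjusted p = 0.133), with the replicate block (adjusted p = 0.0668) and without the detection filter (adjusted p = 0.0501). Mpo, the myeloperoxidase of neutrophils and monocytes, was detected on all 4 control arrays and on no KO array at 1 of its 3 probes, with 5.54, 5.46, 5.30 and 5.58 for control mice against 5.07, 5.12, 5.11 and 4.72 for KO mice. In the reported fit it was at least 1.23-fold lower (adjusted p = 0.00410), a bound set against the lowest detected signal of each KO array. The probe passed the filter through the control group alone, and without background correction its change was -0.13. Of the other probes, 1 was detected on 1 KO and 0 control arrays and the last on no array, and neither was tested.

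The Clec4 lectins of macrophages and dendritic cells were lower in part. In mice most of them lie side by side on chromosome 6, in the order Clec4a1, Clec4a3, Clec4a4, Clec4b1, Clec4a2, Clec4n, Clec4d and Clec4e, with 1 further gene between Clec4a2 and Clec4n. Clec4a1 gave 9.34, 9.36, 9.19 and 9.20 for control mice against 8.35, 8.28, 8.24 and 8.21 for KO mice, and the groups were clearly apart. It fell by 1.002 ± 0.07 (adjusted p = 2.10e-06), Clec4a3 fell by 0.91 ± 0.07 (adjusted p = 2.14e-06) and Clec4b1 fell by 0.81 ± 0.08 (adjusted p = 1.75e-05), the last at all 3 of its probes. A dimmer probe of Clec4a3 did not pass (-0.53, interval -1.04 to -0.02, adjusted p = 0.0642), and its groups overlapped. Clec4n, which encodes the fungal receptor dectin-2, did not pass, with 7.76, 7.66, 7.76 and 7.42 for control mice against 7.59, 7.76, 7.57 and 7.58 for KO mice (-0.03, interval -0.24 to 0.18, adjusted p = 0.797). Its groups overlapped fully, and its interval did not reach those of Clec4a1 (-1.17 to -0.84), Clec4a3 (-1.06 to -0.76) or Clec4b1 (-0.99 to -0.63) further along the same cluster. These are intervals at the brightest probes, and that of the dimmer Clec4a3 probe did overlap the interval of Clec4n. Clec4d, a receptor that pairs with Fcer1g, did not pass either (-0.41, interval -0.82 to -0.01, adjusted p = 0.0714), but did without KO mouse 3 (-0.56, adjusted p = 0.0135) and with the replicate block (adjusted p = 0.0391). Clec4e, Clec4a2 and Clec4a4 had no tested probe, and neither did Clec4f, a lectin of liver macrophages in mice. Among the promoters shown above, Clec4a1 and Clec4b1 each held 2 matches to the PU.1 letters and Clec4d held 1. Clec4a3, lower as well but not shown there, held 1 match over its 2 promoters. Whether the number of matches goes with the call was not tested.

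Clec10a and Clec4g lie elsewhere in the genome and were lower as well. Clec10a, a galactose-type lectin of dermal macrophages and dendritic cells, had signals of 10.72, 10.48, 10.55 and 10.59 for control mice against 9.33, 9.18, 9.52 and 9.43 for KO mice. Clec4g, known from the sinusoidal endothelium of liver and lymph node and next to Cd209a on chromosome 8, gave 6.94, 6.77, 7.03 and 7.16 for control mice against 5.39, 5.94, 5.65 and 5.52 for KO mice. In both genes the highest KO value was well below the lowest control value. Clec10a fell by 1.22 ± 0.09 (adjusted p = 2.59e-06) and Clec4g fell by 1.35 ± 0.13 (adjusted p = 1.27e-05). Clec4g was dim, and its change was -0.54 without background correction.

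Clec7a encodes dectin-1, the receptor for beta-glucan of fungal walls. At its brightest probe the signals were 7.43, 7.05, 7.06 and 6.99 for control mice against 6.12, 6.26, 6.58 and 6.49 for KO mice, and the gene fell by 0.77 ± 0.13 (adjusted p = 0.000644). Control mouse 1 was the highest, and the groups did not overlap. Of the other probes 2 did not pass (0.17 and 0.08, adjusted p = 0.394 and 0.787) and the last was detected on no array. With the mean over probes the change was -0.17 (adjusted p = 0.121), so the decrease of Clec7a rests on 1 probe. Clec1a, a lectin of endothelial and dendritic cells encoded beside Clec7a, did not pass at its brightest probe (0.04, interval -0.19 to 0.28, adjusted p = 0.743) and fell at a dimmer one (-0.48 ± 0.16, adjusted p = 0.0228). Clec12a, Clec9a, Clec1b and Clec5a, which mark myeloid cells, dendritic cells, platelets and monocytes, had no tested probe.

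The Clec2 genes encode ligands of receptors on natural killer cells. Clec2d fell by 0.97 ± 0.11 (adjusted p = 3.45e-05), with 13.16, 13.03, 12.93 and 12.89 for control mice against 12.04, 11.91, 11.88 and 12.29 for KO mice, so that the groups lay well apart. Clec2e, detected on 2 control and 3 KO arrays, did not pass (0.15, interval -0.34 to 0.64, adjusted p = 0.574), and passed without control mice 1 and 3 (0.49, adjusted p = 0.0308). Clec2g, Clec2h, Clec2i and Clec2m had no tested probe.

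The last 3 tested Clec genes, which have no known role as receptors of myeloid cells, fell. Clec3b encodes tetranectin, a secreted protein of connective tissue that binds plasminogen. Its signals were 10.19, 10.27, 11.02 and 10.17 for control mice against 8.93, 8.89, 9.28 and 9.06 for KO mice, with control mouse 3 apart from the others. Clec11a encodes a secreted growth factor of stromal cells, and its signals were 10.38, 10.39, 10.53 and 10.44 for control mice against 9.18, 9.17, 9.19 and 9.29 for KO mice. Both were lower in every KO mouse than in any control mouse. Clec3b fell by 1.37 ± 0.19 (adjusted p = 0.000148) with a change of -1.17 without control mouse 3, and Clec11a fell by 1.23 ± 0.07 (adjusted p = 3.60e-07). Clec16a, whose product acts in endosomes and autophagy rather than as a sugar receptor, fell by 0.65 ± 0.13 (adjusted p = 0.00179), while its dim second probe did not pass (-0.07, adjusted p = 0.798). Clec14a, an endothelial gene, Clec18a and Clec3a had no tested probe.

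Genes that act with these receptors were counted from lists of other genes. Across all tested genes 34.4% were lower and 29.4% were higher. Of 18 tested genes of ITAM and lectin signalling 13 were lower and 2 higher (1 higher without control mice 1 and 3), with a median of -0.54. Rasgrp3, an activator of Ras, fell by 2.14 ± 0.10 (adjusted p = 1.43e-07) and Nfatc1, a transcription factor, fell by 1.55 ± 0.08 (adjusted p = 2.68e-07). Syk was on the array but had no tested probe. Of 25 phagocyte effector genes 19 were lower and 2 higher, with a median of -0.60. Among those lower, Itgam was detected on 4 control and 0 KO arrays. Trem2, a receptor that signals through Tyrobp, fell by 1.95 ± 0.08 (adjusted p = 6.16e-08) and Stab1, a scavenger receptor of macrophages and endothelium, fell by 1.61 ± 0.10 (adjusted p = 5.60e-07). Of 18 growth factor and transcription factor genes of the myeloid lineage 9 were lower and 3 higher, with a median of -0.52. Il34, a ligand of Csf1r made by keratinocytes and needed for Langerhans cells in mice, fell by 1.77 ± 0.08 (adjusted p = 8.46e-08), and Irf4, a transcription factor of dendritic and other cells, fell by 2.06 ± 0.10 (adjusted p = 1.90e-07). The remaining ligand, Csf1, and Spi1, which encodes PU.1, were picked after their values were seen and fell by 1.28 ± 0.11 (adjusted p = 7.30e-06) and 0.99 ± 0.16 (adjusted p = 0.000413). The 3 higher genes of this list were Runx1 (0.92 ± 0.14, adjusted p = 0.000307), Cebpb (0.64 ± 0.09, adjusted p = 0.000168) and Cebpa (0.46 ± 0.10, adjusted p = 0.00240). Another 6 did not pass.

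Markers of other cells and of all leukocytes were counted in lists of which 3 hold a member gene (Cd207, Cd209a and Mpo), so these are not independent of the members. The markers moved in the same mice, and their part in the myeloid results was not tested. Of 11 markers shared by all leukocytes 10 were lower, with a median of -0.79, where 34.4% of all tested genes were lower. Among them Ptprc and Cd48 were detected on 4 control and 0 KO arrays, so they passed the filter through the control group alone. The summed signal of the list lay between 21508 and 23031 in control and between 13299 and 13872 in KO mice. All 8 endothelial markers (median -1.31), all 7 fibroblast markers (median -0.91) and all 6 skeletal muscle markers (median -1.82) were lower, and each of these medians was below that of the member genes (-0.81). All 7 mast cell markers were lower (median -0.54). Of 6 T cell markers 3 were lower and 3 did not pass, and 1 of those lower, Thy1, is also in the fibroblast list. Among 7 dendritic cell markers 4 were lower and 1 higher (0 higher without control mice 1 and 3), and among 5 Langerhans cell markers 3 were lower and 2 higher. Of the class II genes in the latter list, which encode antigen-presenting molecules, H2-Ab1 fell by 0.70 while H2-Aa (0.61) and H2-Eb1 (0.60) rose. Of 6 neutrophil markers 1 was lower (Mpo), 1 was higher (S100a8, a gene also made by keratinocytes) and 4 did not pass. The number lower was 2 without any 1 of control mouse 3 and KO mice 1, 2 and 3 and without control mice 1 and 3, and 0 among genes detected on all 8 arrays. Of 3 natural killer cell markers 2 were lower, and 1 was lower without control mice 1 and 3 or without any 1 of control mice 2 and 4 and KO mice 1 and 4. All 7 hair shaft and inner root sheath keratins were higher, with a summed signal between 223 and 1832 in control and between 167114 and 176240 in KO mice. The summed signal of the 35 member genes lay between 80343 and 82484 in control and between 49065 and 51028 in KO mice, and without Lyz1 and Lyz2 between 44345 and 46936 in control and between 22636 and 24304 in KO mice. The sums of the growth factor and transcription factor list overlapped (12654 to 13322 in control and 12145 to 14297 in KO mice), and those of the phagocyte effector list did too (62125 to 63394 and 58045 to 62297).

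**Figure D4:**
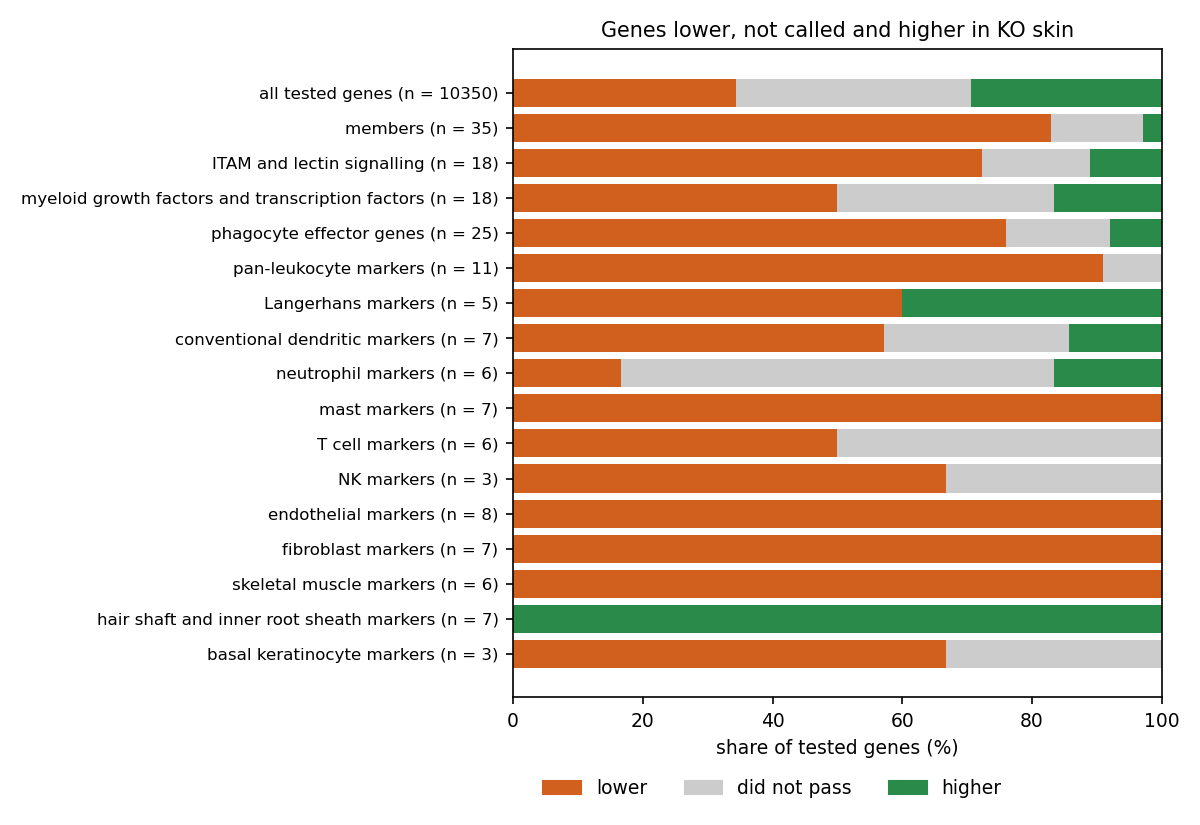
Share of tested genes that were lower, did not pass or were higher in KO skin, for all 10350 tested genes, the 35 member genes and the lists, 3 of which hold 1 member gene each (n is the number tested, brightest probe per gene). The member bar is lower in 29 of 35 genes, whereas all 7 hair keratins are higher.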

How the data were processed

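Per the labels, total RNA of whole back skin from 4 KO and 4 control mice was hybridised to Illumina bead arrays, 1 array per mouse. The authors deposited the bead signal of each probe as an intensity that is neither background-subtracted nor scaled, with a detection p-value that sets it against negative control beads. The submitters' processing notes name GenomeStudio 2011.1. A further deposited table holds background-subtracted intensities with equal quantiles on every array, made by a method not given in the sources used here. They are linear and uncentred (median 39.1 per array), and served as an alternative with a floor of 16.

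Raw signals were processed with neqc of limma 3.58.1 (R 4.3.3), which corrects background from the detection p-values, adds an offset of 16 and normalizes quantiles to log2 values. The offset shrinks the changes of dim probes. Of 25697 probes, the 15120 detected (p below 0.05) on 4 or more arrays were fitted with lmFit and eBayes, without covariates, and p-values were adjusted over all of them (Benjamini-Hochberg, threshold 0.05). SE is that of the fit and intervals are 95%. The number of mice limits the precision. Symbols came from the platform annotation (23978 probes with 1 symbol, 1719 with none, 0 with several), updated through the RefSeq table of GRCm38.p6 (23962 matched).

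All member genes could be named. Values per mouse are given for a fixed set (Cd207, Adgre1, Tyrobp, Fcer1g, Clec7a, Clec10a, Lyz1, Lyz2, Med1), the 10 largest decreases and up to 8 increases among called genes whose groups did not overlap, and called genes undetected in 1 group; Clec4n, Clec2d and the second probe of Aif1 were added after their values were seen. The 2 genes of each of 3 pathway lists with the smallest adjusted p were named. Csf1, Spi1, Runx1, Cebpb and Cebpa were named after their values were seen. Members and lists were chosen with earlier results of these data known. Alternatives changed the background correction, scaling, filter, variance model, probe rule, mice and test. The fit was tested on simulated data.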

Additional observations from a re-analysis of the deposited data

Results flagged for a closer look

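Over 40 groups of 4 mice, 3 held a mouse far from the others, where chance gives about 1 in 20 groups. Control mouse 3 had a Clec3b signal of 11.02, against 10.17 to 10.27 in the other control mice. Control mouse 1 had a Clec7a signal of 7.43, against 6.99 to 7.06. KO mouse 4 had an Mpo signal of 4.72, against 5.07 to 5.12, and none of these 4 values was above background. The decreases of Clec3b and Clec7a passed without the mouse concerned (-1.17 and -0.67).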

How the results depend on the processing

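Across 20 alternatives, 24 of 31 called genes, Med1 included, passed with the same direction in each. The exceptions were Cd207, Lyz2, Clec7a, Tyrobp, Lilrb4a, Mpo and Aif1. Leaving out 1 mouse at a time gave 38 to 40 member probes lower and 1 to 2 higher, and 28 to 29 member genes lower and 1 higher. Without control mice 1 and 3, chosen after seeing the data, 2 member probes and 2 member genes were higher. With the mean over probes 0 member genes were higher. The change of Aif1 was then -0.0083 and that of Clec1a -0.22. Clec1a, not called, lay between -0.019 (without KO mouse 3) and 0.13 when 1 mouse was left out, and was -0.053 without control mice 1 and 3. Clec4n, not called, lay between -0.11 and 0.0064 when 1 mouse was left out (0.0063 without control mouse 1, 0.0064 without control mouse 3) and was 0.080 without both. Tyrobp, Mpo and Lilrb4a missed only the stricter threshold of the methods' t-test, p below 0.005, at which 32 member probes were lower. The methods' t-test at p below 0.05 gave 40 probes lower and after Benjamini-Hochberg adjustment 38. With the replicate number as a block 39 member probes and 29 member genes were lower. Same-numbered mice did not deviate together (r between -0.11 and 0.06). With so few mice this cannot decide whether the numbers pair them, and the labels do not state it. Slide as a block was not run, since the files give no slide. Without background correction the median change of the 35 genes was -0.60, and the decreases of Clec7a (-0.36), Cd83 (-0.50), Clec16a (-0.35), Fcgr1 (-0.27), Lilrb4a (-0.26) and Mpo (-0.13) were smaller by over 1.5 times but passed. With the mean over probes the change of Adgre1 was -0.42, of Cd207 -0.21, of Clec16a -0.36, of Lyz1 -1.20 and of Lyz2 -0.53. Mpo, Marco and Clec2e have no value where detection on all 8 arrays was required. Dim probes near background, among them Mpo, Marco, Clec2e and Clec4g, carry the least secure sizes.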
